A study of Mus musculus with 34 samples.

Results

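Gene expression was compared between hepatocytes of 3 control mice 48 h after an injection of carbon tetrachloride (CCl4) and hepatocytes of 6 control mice that did not receive it, with genes of cell division, of zonation and of sterol synthesis set aside. These 9 libraries were taken by their group label from 34 in the series, 18 of them from hepatocytes. Every mouse carried floxed alleles of Yap and Taz (Yap fl/fl Taz fl/fl) on a mixed B6;129P background and lacked the Opn-iCreERT2 driver that deletes them in knockout siblings. All received tamoxifen at 1.6 mg/kg on 5 days, starting at 7 to 8 weeks of age, and then had 3 weeks without treatment. Mice 12, 15 and 16 next received CCl4 at 1 ml/kg. For mice 2, 6, 7, 8, 9 and 19 the treatment label names tamoxifen alone, and no vehicle injection is given in the sources used here. Livers were perfused with pronase and collagenase, hepatocytes were enriched by slow spins and a Percoll gradient, and cells that excluded propidium iodide were sorted without any marker of cell type. Libraries were made with the QuantSeq 3′ FWD kit, which counts tags near the 3′ ends of transcripts.

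Libraries held 2411576 to 5790583 counts after CCl4 and 991175 to 7535053 counts without it, so that 3 counts stood for 0.518 to 1.24 and 0.398 to 3.03 counts per 1000000 counts (CPM). These ranges use library totals, before the scaling factors given below. The sequencing files form a first numbered series with mice 12 and 15 (CCl4) and 2, 7 and 8 (no CCl4) and a second with mouse 16 (CCl4) and 6, 9 and 19 (no CCl4). For mouse 15 the description label states a knockout liver, whereas its genotype and group labels state a control, and it was kept as a control. Of 9679 genes tested, 2652 (27.4%) were called at a Benjamini-Hochberg adjusted p under 0.05 in edgeR's quasi-likelihood test, 1324 (13.7%) higher after CCl4 and 1328 (13.7%) lower. Without mouse 15 the count was 2020, and with mouse 15 moved to the knockout group it was 1930. Among 226 tested genes taken up by name, 26 lost their call with mouse 15 moved, Nfkbia, Klf15, Stat5b and Ifi44 among them. In 2303 genes (23.8%) the lowest value of one group lay above the highest of the other. The 3 lists set aside held 401 of the tested genes, and outside them 1057 genes were higher and 1252 lower among 9278.

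Levels are shares of a library, and their scale matters here. The trimmed-mean (TMM) scaling factors were 1.08 to 1.18 after CCl4 and 0.771 to 0.912 without it, and on that scale the median log2 fold change of all genes was -0.01. When libraries were scaled by their totals alone the median moved up by 0.43, and 3044 genes were called higher and 590 lower, an 83.8% share of higher calls against 49.9% under TMM. All 1324 genes called higher under TMM remained higher under totals, and 590 of the 1328 called lower remained lower. Fold changes below are therefore relative to the centre of all genes. Under totals the median changed sign in 9 of the 47 lists, namely positive acute phase, NRF2 targets and antioxidant enzymes, proteasome, mitochondrially encoded, iron and haem, keratins and junctions, lysosome and autophagy, interferon-stimulated and MHC class I, and lipid droplets, and also for the hepatocyte and acinar markers. Of the genes described, Ttr and Hnf4a lost their calls under totals, Ahsg gained one, and Hamp, Hp, Trf, Serpina1e, Egr1 and Ctrb1, called on neither scale, changed sign. CPM values are TMM-scaled, and the 3 values given for CCl4 are those of mice 12, 15 and 16 in this order.

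Among the 10 marker lists, hepatocyte markers had the highest sum in every library. The 12 markers together held 81146, 102398 and 106116 CPM after CCl4, against 121067 to 144675 CPM (median 132549) without it, and the groups did not overlap. Markers of other liver cells were present at lower sums and were mostly higher after CCl4. Summed Kupffer cell markers stood at 350.1, 326 and 418 CPM after CCl4, against 11 to 217 CPM (median 69.6) without it, and their groups did not overlap. Stellate cell markers summed to 494, 1032 and 1276 CPM after CCl4, against 16.8 to 503 CPM (median 229.6) without it, with mouse 12 inside the range of the other group. Monocyte, endothelial, bile duct, neutrophil and erythroid markers overlapped between the groups as well, and lymphocyte markers summed to at most 4.51 CPM in any library. Mouse 19, without CCl4, stood apart with 325.7 CPM of monocyte, 55.2 CPM of neutrophil and 58.4 CPM of erythroid markers, and mouse 6, without CCl4, held 4067 CPM of pancreatic acinar markers. In bulk libraries fewer cells of a type and less RNA per cell cannot be told apart.

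**Figure D1:**
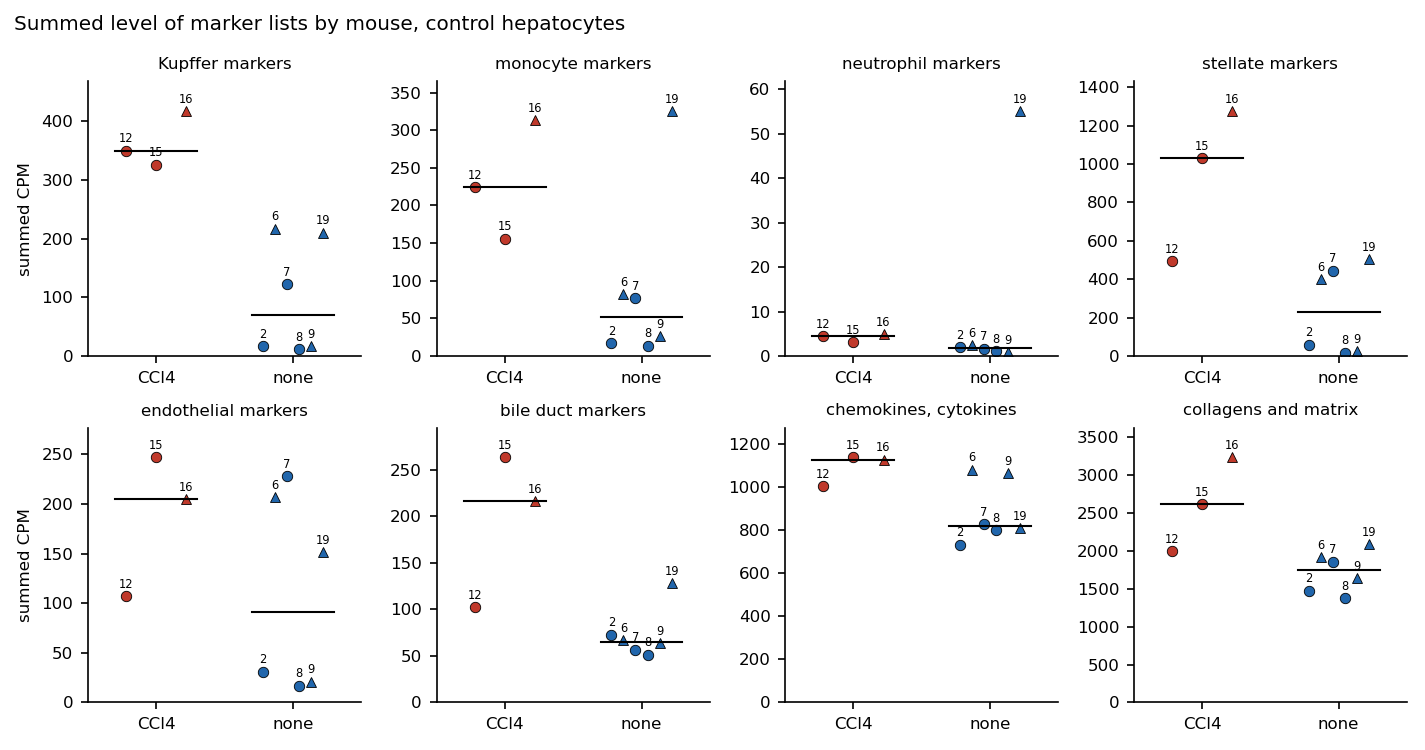
Summed CPM (linear axis) of marker lists and of the chemokine and matrix gene lists in each control hepatocyte library, with CCl4 on the left and no CCl4 on the right. Points are mice, labelled by number, circles the first and triangles the second series of sequencing files, and lines are group medians. Kupffer markers do not overlap between the groups, whereas mouse 19 carries 325.7 CPM of monocyte and 55.2 CPM of neutrophil markers without CCl4.

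CCl4 is turned into a reactive radical by cytochrome P450 enzymes of the hepatocytes around the central vein, which die, and hepatocytes that survive enter the cell cycle to replace them. A resting hepatocyte secretes most plasma proteins, breaks down amino acids, makes glucose and conjugates foreign compounds, under the control of transcription factors such as HNF4A and members of the C/EBP family. Injury also brings cytokines such as IL-6, to which hepatocytes answer with acute phase proteins, and activates stellate cells, which then make collagen.

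The genes of secreted plasma proteins are classical C/EBP targets, and their promoters are shown here because members of this list that hold the same letters differed in the size of their change after CCl4. Of the 26 plasma carriers and protease inhibitors, 22 had a promoter in the RefSeq table (GRCm38.p6), and the letters TTGCNNAA, searched on both strands in the 250 bases before the start, occurred in 9 of them (40.9%), against 3142 of 32851 promoters (9.56%) in the whole table. The shares differ in unit, since a gene of the list counted if any of its promoters matched, whereas the table was counted by single promoters. In the following stretches of 120 bases, 5′ to 3′ on the strand of the gene, capitals mark these letters (in Alb on the opposite strand).
Alb, chr5:90460716-90460835, plus strand: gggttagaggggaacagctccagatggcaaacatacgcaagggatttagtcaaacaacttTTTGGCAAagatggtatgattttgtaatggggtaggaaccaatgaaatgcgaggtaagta
Serpina1d, chr12:103773723-103773842, minus strand: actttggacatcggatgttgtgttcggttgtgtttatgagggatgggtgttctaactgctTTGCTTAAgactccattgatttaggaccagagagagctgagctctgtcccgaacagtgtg
Serpina1e, chr12:103957028-103957147, minus strand: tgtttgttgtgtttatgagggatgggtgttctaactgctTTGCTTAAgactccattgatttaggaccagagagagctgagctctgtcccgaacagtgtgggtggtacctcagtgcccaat
Hrg, chr16:22950879-22950998, plus strand: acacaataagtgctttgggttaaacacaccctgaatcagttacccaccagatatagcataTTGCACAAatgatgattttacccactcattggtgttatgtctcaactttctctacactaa
Among the 9 genes with the letters 3 were lower after CCl4 (Serpina1b, Serpina1d and Hrg), and among the 13 without them 9 were lower. Serpina1d and Serpina1e, alpha-1-antitrypsin paralogs that hold the same letters in nearly the same surroundings, had log2 fold changes of -2.09 and -0.38. Reads of these paralogs can be shared, so that their separate values are uncertain. A match is a description of letters and says nothing about binding. The C/EBP factor gene Cebpa itself held 125, 104 and 55.3 CPM after CCl4, against 145 to 368 CPM (median 232) without it, a fall by 1.35 (SE 0.32, adjusted p = 0.00373).

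**Figure D2:**
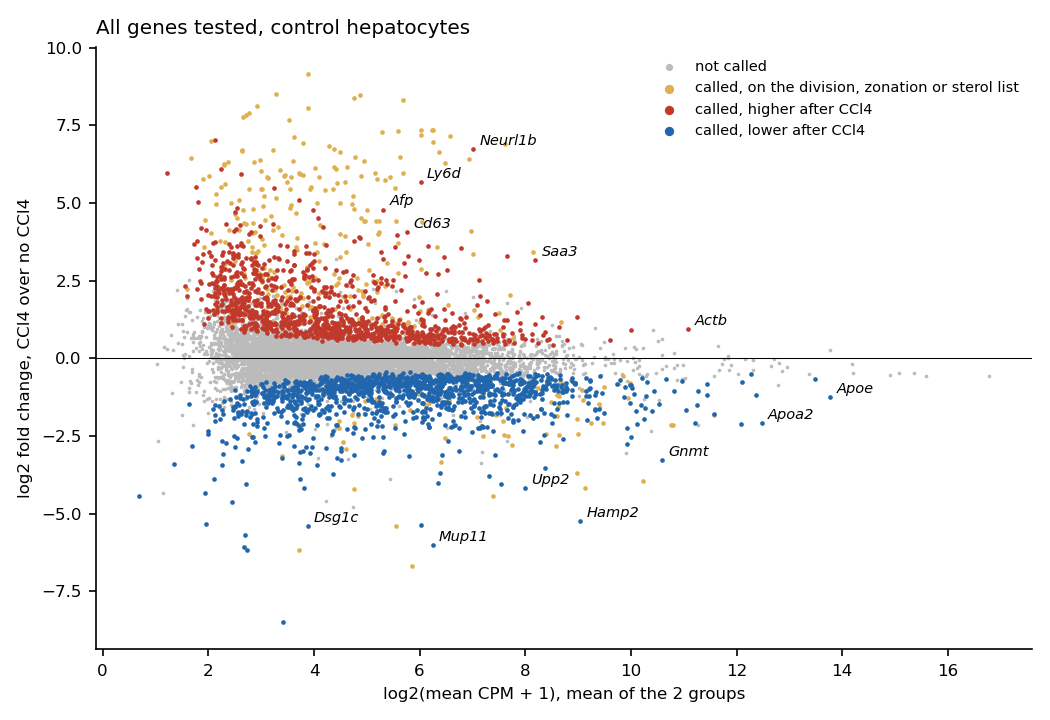
Log2 fold change of CCl4 over no CCl4 (vertical axis) against the mean level, log2(CPM + 1) (horizontal axis), for the 9679 genes tested in control hepatocytes. Red and blue points are genes called higher and lower, yellow points called genes of the 3 lists set aside, and grey points were not called. Outside the lists, 275 genes were called at least 4-fold higher and 133 at least 4-fold lower.

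The largest increases outside the lists set aside were in genes that hepatocytes without CCl4 hardly contained. Neurl1b (GRCm38, chr17:26414829-26446349, as are all positions given here), which encodes a ubiquitin ligase acting on Notch ligands, held 208, 449.6 and 105 CPM after CCl4, against 0 to 4.51 CPM (median 1.05) without it (log2 fold change 6.74, SE 0.75, adjusted p = 6.04e-06). Mouse 15 was highest, and without it the log2 fold change was 6.04. Ly6d (chr15:74762056-74763620), a lipid-anchored surface protein, held 116, 163 and 95.4 CPM after CCl4, against 0.902 to 8.49 CPM (median 1.35) without it (log2 fold change 5.66, SE 0.64, adjusted p = 5.65e-06). Afp (chr5:90490737-90508907), alpha-fetoprotein, the main plasma protein of fetal liver, held 93.4, 62.4 and 69.8 CPM after CCl4, against 0 to 3.69 CPM (median 2.56) without it (log2 fold change 4.79, SE 0.39, adjusted p = 5.11e-08). For these 3 genes every CCl4 mouse lay far above every other mouse. Cd63 (chr10:128900989-128912822), a tetraspanin of late endosomes, held 100.1, 111 and 85.8 CPM after CCl4, against 1.39 to 18 CPM (median 6.23) without it (log2 fold change 4.08, SE 0.57, adjusted p = 5.66e-05), again without overlap, and macrophages of control mice after CCl4 held 169.8 to 468 CPM of it. Psat1 (chr19:15904678-15947337), an enzyme of serine synthesis, held 8.01, 9.71 and 17.4 CPM after CCl4, against 0 to 1.21 CPM (median 0.212) without it (log2 fold change 4.07, SE 0.49, adjusted p = 6.95e-07, and 4.74 without mouse 2). Akr1c18 (chr13:4132615-4150654), which inactivates progesterone, held 18.1, 35.9 and 44 CPM after CCl4, against 0 to 4.71 CPM (median 0.77) without it (log2 fold change 4.23, SE 0.74, adjusted p = 0.000347, and 5.65 without mouse 7). In neither gene did the groups overlap. Macrophages of control mice after CCl4 held at most 30.7 CPM of Neurl1b, 35.7 CPM of Afp, 5.11 CPM of Akr1c18 and 57.6 CPM of Ly6d. Their Psat1 level, 12.3 to 30.04 CPM (mean 21.9), was not below that of hepatocytes after CCl4 (mean 11.7 CPM).

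The other genes among the 12 largest increases follow. Acta2 and Tagln, smooth muscle genes that activated stellate cells also use, held 18.7, 32.5 and 39.7 CPM and 17.2, 45.9 and 7.8 CPM after CCl4, against 0 to 5.3 CPM (median 0.673) and 0 to 2.35 CPM (median 0.405) without it. Their log2 fold changes were 4.52 (SE 0.78, adjusted p = 0.000205) and 5.09 (SE 0.59, adjusted p = 3.81e-07), or 5.62 for Acta2 without mouse 7 and 4.16 for Tagln without mouse 15. Both lay apart between the groups, and both genes belong to the stellate marker list, whose sum in mouse 12 was inside the range without CCl4. Tagln was lowest in mouse 16, which had the highest sum. The part of stellate cells in the result was not tested. Tnc, the matrix protein tenascin C, had 2 counts in all mice without CCl4 and stood at 4.77, 10.8 and 14.5 CPM after it, a pooled ratio of 84.9 (23 to 708), with its 95% counting interval. Its fitted log2 fold change was 5.95, and 6.59 without mouse 9. Mmp12, the macrophage elastase, held 15.8, 30.4 and 37.6 CPM after CCl4, against 0 to 6.37 CPM (median 0.804) without it (log2 fold change 4.79, SE 0.75, adjusted p = 4.72e-05, and 5.49 without mouse 19), and 229 to 1116 CPM in macrophages. The calcium-binding gene S100a11 had 7.25, 8.25 and 29.8 CPM after CCl4, against 0 to 6.37 CPM (median 0.209) without it (log2 fold change 4.34, SE 0.87, adjusted p = 0.000795). Its fold rested partly on single mice, at 3.45 without mouse 16 and 5.44 without mouse 19. Nrg1, a ligand of the ERBB3 and ERBB4 receptors, held 10.7, 14.2 and 13.8 CPM after CCl4, against 0 to 3.18 CPM (median 0.551) without it (log2 fold change 4.27, SE 0.49, adjusted p = 5.39e-07), with no overlap.

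By absolute gain Actb led among called genes outside the lists set aside. Actb, beta-actin, held 2744, 2802 and 3035 CPM after CCl4, against 1333 to 1684 CPM (median 1469) without it (log2 fold change 0.95, SE 0.20, adjusted p = 0.001), and Tubb5, a tubulin, 311, 444 and 333 CPM after CCl4, against 28 to 48.1 CPM (median 34.8) without it (log2 fold change 3.30, SE 0.31, adjusted p = 2.98e-07). In both the groups lay apart. Nfkbia, the inhibitor of NF-kappa-B and a target of it, held 598, 1106 and 459.8 CPM after CCl4, against 257 to 319 CPM (median 278) without it (log2 fold change 1.34, SE 0.28, adjusted p = 0.00119), with mouse 15 highest and no overlap. Its call was lost with mouse 15 moved to the knockout group. Macrophages of control mice after CCl4 held 13595.5 to 24277 CPM of Actb, 396 to 598 CPM of Tubb5 and 3508 to 7339 CPM of Nfkbia. Saa3, an acute phase gene also made outside hepatocytes, held 207, 91.9 and 1269.8 CPM after CCl4, against 35.4 to 127 CPM (median 46.8) without it (log2 fold change 3.17, SE 0.62, adjusted p = 0.00141). Mouse 16 alone carried most of it, mouse 15 lay inside the other group, and without mouse 16 the log2 fold change was 1.37. Lrg1 and Rrbp1 complete the 6 largest gains, but the groups overlapped and their calls (adjusted p = 0.0414 and 0.0261) were lost without 1 mouse, for Lrg1 without mouse 15, 16, 6, 7, 8 or 19 (adjusted p at most 0.267) and for Rrbp1 without mouse 12 or 15 (0.101 and 0.115).

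**Figure D3:**
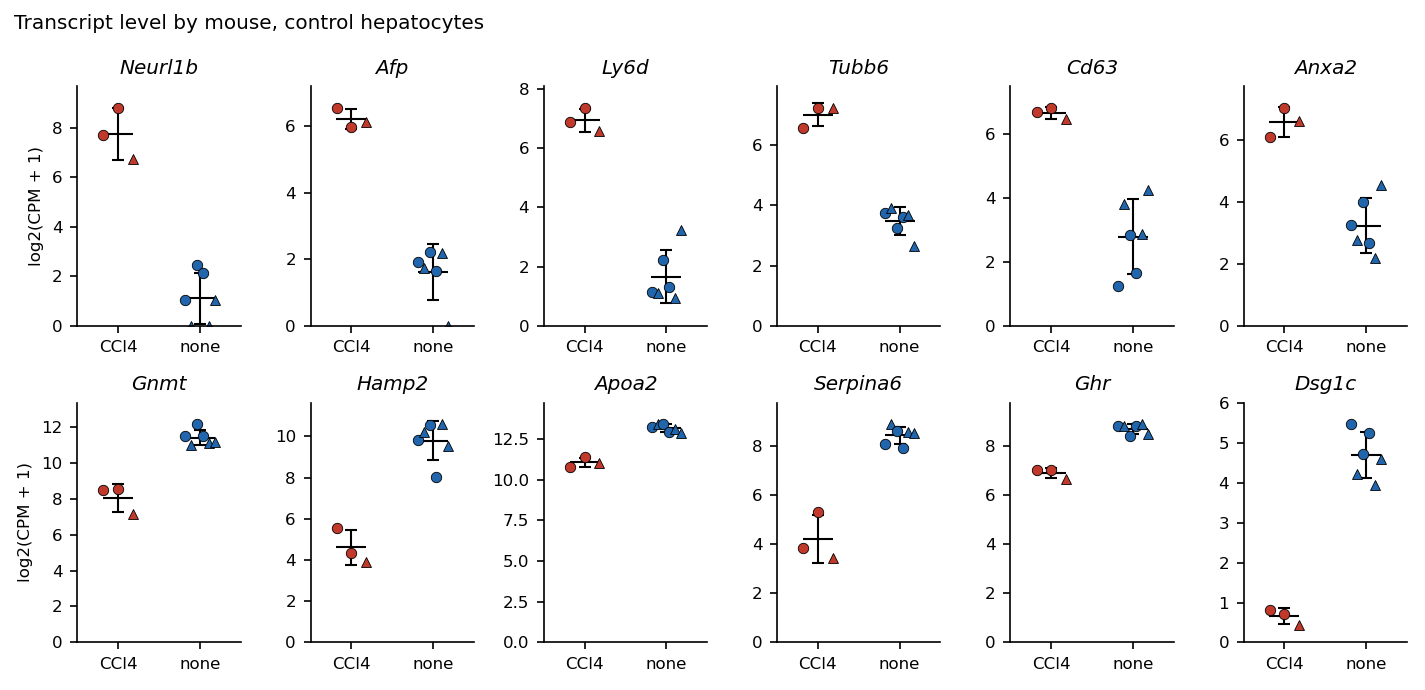
Level of 12 genes in each control hepatocyte library, log2(CPM + 1) on the vertical axis, CCl4 on the left and no CCl4 on the right. Points are mice, circles the first and triangles the second series of sequencing files, and bars are the mean and SD of each group. The upper 6 genes rose and the lower 6 fell, and in none of them do the groups overlap.

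Among the 12 largest decreases outside the lists set aside were the following. Sult3a1 (chr10:33857721-33879532), a sulfotransferase, held 4.2, 2.26 and 2.48 CPM after CCl4, against 50.9 to 244 CPM (median 102) without it (log2 fold change -5.35, SE 0.81, adjusted p = 5.66e-05). Hamp2 (chr7:30922372-30924681), a mouse paralog of the iron hormone hepcidin, held 46.5, 19.4 and 14.2 CPM after CCl4, against 263 to 1534 CPM (median 1043) without it (log2 fold change -5.24, SE 1.09, adjusted p = 0.00231, and -5.91 without mouse 12). Hamp, hepcidin itself, named after its value was seen, stood at 1045, 1326 and 1698 CPM after CCl4, against 851 to 2401 CPM (median 1625) without it, with overlapping groups and no call (log2 fold change -0.34, SE 0.61, adjusted p = 0.733). Serpina6 (chr12:103646630-103657212), corticosteroid-binding globulin of plasma, held 13.3, 38.2 and 9.93 CPM after CCl4, against 237 to 465 CPM (median 369) without it (log2 fold change -4.05, SE 0.77, adjusted p = 0.00111, and -4.88 without mouse 15). Upp2 (chr2:58567298-58792971), a uridine phosphorylase of liver, held 41.6, 28.6 and 8.15 CPM after CCl4, against 179 to 877 CPM (median 371) without it (log2 fold change -4.18, SE 0.88, adjusted p = 0.00251). Thrsp (chr7:97412938-97417730), a regulator of lipid synthesis named for its response to thyroid hormone, held 51.5, 78.8 and 25.2 CPM after CCl4, against 79.6 to 1417 CPM (median 581) without it (log2 fold change -3.54, SE 0.91, adjusted p = 0.00879). Of these, Thrsp came closest to overlap, since mouse 15 lay just under the lowest mouse without CCl4. The call of Thrsp was lost in the first file series alone. Csrp3, which encodes a muscle LIM protein, held 0.953, 1.29 and 2.84 CPM after CCl4, against 7.43 to 32.9 CPM (median 22.1) without it (log2 fold change -3.88, SE 0.46, adjusted p = 2.98e-06), and Ces3b, a carboxylesterase, 7.25, 14.6 and 13.8 CPM after CCl4, against 77.4 to 223 CPM (median 155) without it (log2 fold change -3.70, SE 0.69, adjusted p = 0.000893). Neither overlapped.

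Other large decreases were less even across mice. Rgs16, a regulator of G protein signalling, held 13.2, 5.99 and 9.22 CPM after CCl4, against 3.18 to 303 CPM (median 154) without it (log2 fold change -4.02, SE 0.96, adjusted p = 0.00575), where mouse 19 alone was at the low end and inside the CCl4 range. Sult2a8 held 20.8, 24.4 and 17.7 CPM after CCl4, against 136 to 495 CPM (median 281) without it (log2 fold change -3.80, SE 1.07, adjusted p = 0.0157); the groups did not overlap, but the call was lost without mouse 12, 15 or 16 (adjusted p = 0.0573, 0.0545 and 0.0572). Cyp4a12a, a male-biased fatty acid hydroxylase in mice, had 2 counts in all after CCl4 and 0 to 52.2 CPM (median 2.11) without it, with overlapping groups. Its call was lost by limma voom and in the first file series alone. Mup11 stood at 1.72, 2.26 and 3.19 CPM after CCl4, against 4.24 to 660.0 CPM (median 62.3) without it (log2 fold change -6.01, SE 1.23, adjusted p = 0.000875), and at -4.21 without mouse 8. Mup11 lost its call by limma voom, in a fit of the control libraries only and in the first file series alone. It belongs to the major urinary proteins, pheromone carriers made by liver under growth hormone, of which 6 of 9 tested genes fell (median -3.22) and which share reads. Their sum was 454, 824 and 743 CPM after CCl4, against 1351 to 7423 CPM (median 4883) without it, with the lowest mice without CCl4 (19 and 2) still above all 3 CCl4 mice.

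The decreases among abundant transcripts were smaller in fold but lay in main products of the liver. Among called genes outside the lists set aside, Apoe, apolipoprotein E, had the largest loss in level, with 6358, 9779 and 8816 CPM after CCl4, against 11394 to 25173 CPM (median 20809) without it (log2 fold change -1.24, SE 0.28, adjusted p = 0.00219). Apoa2 (chr1:171225054-171226379), the second protein of high-density lipoprotein, held 1781, 2645 and 2106 CPM after CCl4, against 7404 to 10806 CPM (median 9348) without it (log2 fold change -2.08, SE 0.27, adjusted p = 9.15e-06), and Apoc1 held 1071, 1212 and 1857 CPM after CCl4, against 3422 to 7174 CPM (median 4594) without it (log2 fold change -1.77, SE 0.30, adjusted p = 0.000169). All 3 lay apart between the groups. In the list of apolipoproteins and lipoprotein handling, 9 of 20 tested genes fell and 1 rose (median -0.60), with 5 still lower under library totals. Lipc, hepatic lipase, fell by 1.64 (SE 0.35, adjusted p = 0.00176). The one that rose was Apoa4, with 454, 404 and 156 CPM after CCl4, against 28.6 to 157 CPM (median 77.7) without it (log2 fold change 2.03, SE 0.43, adjusted p = 0.00201), and mouse 16 just inside the other group. Apob, the structural protein of very low-density lipoprotein, named after its value was seen, stood at 2383, 1771 and 599 CPM after CCl4, against 528 to 2125 CPM (median 1665) without it, with wide overlap and no call (log2 fold change 0.10, SE 0.45, adjusted p = 0.901).

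Amino acid catabolism was the list with the highest share of lower genes. Of 48 tested genes, 40 fell (83.3%, against 13.7% of all genes), with a median log2 fold change of -1.48 beside -0.01 for all genes, and 35 of 40 fell when zonation genes were left out. Their summed level was 9756, 7628 and 6583 CPM after CCl4, against 25221 to 35703 CPM (median 30251) without it, and every CCl4 mouse lay below the lowest other mouse. Under library totals 33 of them were still called lower. Genes of the methionine cycle belong to the list. Gnmt (chr17:46725664-46729168), which transfers methyl groups from S-adenosylmethionine to glycine, held 352, 371 and 141 CPM after CCl4, against 2027 to 4517 CPM (median 2566) without it (log2 fold change -3.28, SE 0.46, adjusted p = 3.15e-05). Ahcy (chr2:155059310-155074497), which splits the product S-adenosylhomocysteine, held 28.2, 25.4 and 17.4 CPM after CCl4, against 132 to 255 CPM (median 193) without it (log2 fold change -2.97, SE 0.37, adjusted p = 6.15e-06). Mat1a (chr14:41105035-41124412), the liver enzyme that makes S-adenosylmethionine, held 2574, 1595 and 671 CPM after CCl4, against 5347 to 8395 CPM (median 7208) without it (log2 fold change -2.12, SE 0.49, adjusted p = 0.00358), with mouse 16 lowest. The groups were apart in all 3. Haao (chr17:83831156-83847963), an enzyme of tryptophan breakdown towards NAD, held 69, 109 and 75.2 CPM after CCl4, against 248 to 460.0 CPM (median 329) without it (log2 fold change -2.05, SE 0.24, adjusted p = 2.98e-06), and Cdo1, cysteine dioxygenase, 429, 570.3 and 493 CPM after CCl4, against 1347 to 2568 CPM (median 1926) without it (log2 fold change -1.95, SE 0.26, adjusted p = 9.01e-06). Both again lay apart.

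**Figure D4:**
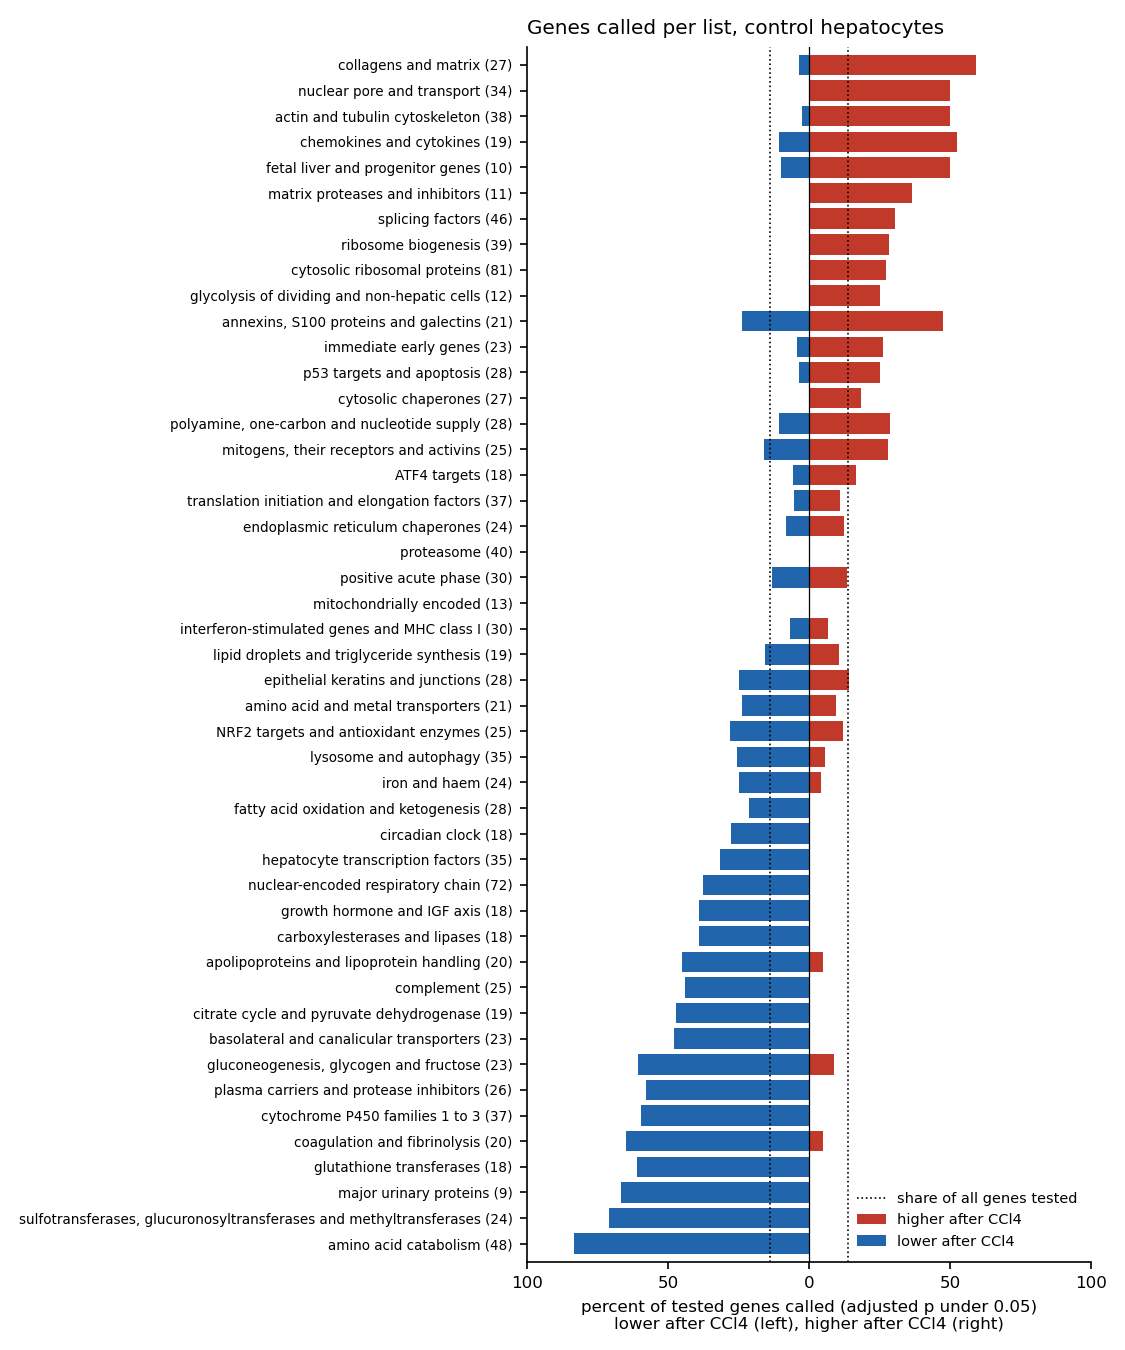
Percent of tested genes called lower (blue, left) and higher (red, right) after CCl4 in each of 47 gene lists, with the number tested in brackets and dotted lines at the share of all genes called in each direction (13.7%). Amino acid catabolism has the highest share of lower genes and collagens and matrix the highest share of higher genes.

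Secreted proteins fell unevenly. Of 26 plasma carriers and protease inhibitors 15 fell (median -0.71, 9 without mouse 12 and 8 under library totals), and their sum was 82222, 103843 and 111092 CPM after CCl4, against 127702 to 154121 CPM (median 140404) without it, without overlap. Serpina1d, an alpha-1-antitrypsin paralog, held 544, 1072 and 1074 CPM after CCl4, against 2654 to 4745 CPM (median 3966) without it (log2 fold change -2.09, SE 0.26, adjusted p = 5.42e-06). Apoh, beta-2-glycoprotein 1, held 769.6, 805 and 792 CPM after CCl4, against 1809 to 2696 CPM (median 2144) without it (log2 fold change -1.47, SE 0.21, adjusted p = 2.81e-05), and Serpinf1, an inhibitor of blood vessel growth, 83.9, 71.5 and 101 CPM after CCl4, against 235 to 412 CPM (median 318) without it (log2 fold change -1.92, SE 0.28, adjusted p = 2.90e-05). These 3 genes were lower in every CCl4 mouse than in any other. Azgp1, zinc-alpha-2-glycoprotein, fell by 1.24 (SE 0.24, adjusted p = 0.000548). Alb, serum albumin, stood at 31026, 39570.2 and 47817 CPM after CCl4, against 46765 to 75319 CPM (median 54979) without it, with mouse 16 inside the other group (log2 fold change -0.56, SE 0.21, adjusted p = 0.0553; without mouse 16 it was called, at -0.73). Ahsg, fetuin-A, and Trf, transferrin, both named after their values were seen, were not called (Ahsg was called higher under library totals, by 0.70, adjusted p = 0.011), with 13596, 19766 and 12647 CPM and 7156, 5880.2 and 6943 CPM after CCl4, against 8575 to 16662 CPM (median 12511) and 5388 to 8718 CPM (median 6617) without it. Serpina1c and Ttr were called in all 9 mice (log2 fold changes -1.19 and -0.67), but Serpina1c not without mouse 12 (adjusted p = 0.0606), and Ttr not without mouse 12, 15, 16, 2, 6, 7, 8 or 9 (log2 fold change -0.78 to -0.50) nor under library totals.

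Clotting factors and complement components, which liver also secretes, fell as well. Of 20 genes of coagulation and fibrinolysis 13 fell (median -0.76, 5 under library totals). Serpinc1, antithrombin, held 804, 789 and 697 CPM after CCl4, against 1399 to 2126 CPM (median 1724) without it (log2 fold change -1.19, SE 0.18, adjusted p = 5.73e-05), and Klkb1, plasma prekallikrein, 124, 148 and 124 CPM after CCl4, against 292 to 388 CPM (median 344) without it (log2 fold change -1.39, SE 0.21, adjusted p = 4.37e-05). Neither overlapped. Cpb2, the fibrinolysis inhibitor TAFI, fell by 0.93 (SE 0.18, adjusted p = 0.000803). In the same list 1 gene rose, and 2 without mouse 12 or without mouse 15. Of 25 complement genes 11 fell (median -0.58, 7 without mouse 12, 4 under library totals). C8g, a subunit of the membrane attack complex, held 111, 156 and 89 CPM after CCl4, against 373 to 551 CPM (median 428) without it (log2 fold change -1.90, SE 0.24, adjusted p = 5.22e-06), and Mbl2, a mannose-binding lectin, 239, 170.4 and 326 CPM after CCl4, against 439 to 1019 CPM (median 594) without it (log2 fold change -1.40, SE 0.29, adjusted p = 0.00128). In both, all CCl4 mice were the lowest.

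The positive acute phase list, of proteins that rise in inflammation, did not move one way. Of 30 genes 4 rose and 4 fell, 13.3% each way beside 13.7% of all genes, so both shares were near those of all genes. The median of -0.15 turned to 0.27 under library totals, with 8 higher and 3 lower. The number that rose was 1 without mouse 15, 2 without mouse 8 and 7 without mouse 9. Summed levels overlapped fully, at 35615, 33542 and 46359 CPM after CCl4, against 29121 to 55359 CPM (median 38458) without it. Crp, C-reactive protein, which in mice responds little to inflammation, held 208, 208 and 259 CPM after CCl4, against 331 to 583 CPM (median 417) without it (log2 fold change -0.96, SE 0.20, adjusted p = 0.00101). Saa4, a constitutive serum amyloid A, held 89.1, 87.7 and 87.2 CPM after CCl4, against 168 to 544 CPM (median 311) without it (log2 fold change -1.98, SE 0.35, adjusted p = 0.00034), and Orm3, an orosomucoid, fell by 2.97 with overlap (SE 0.64, adjusted p = 0.00265). Hp, haptoglobin, named after its value was seen, stood at 1566, 1987 and 1648 CPM after CCl4, against 1365 to 2895 CPM (median 1904) without it (log2 fold change -0.22, SE 0.26, adjusted p = 0.585).

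**Figure D5:**
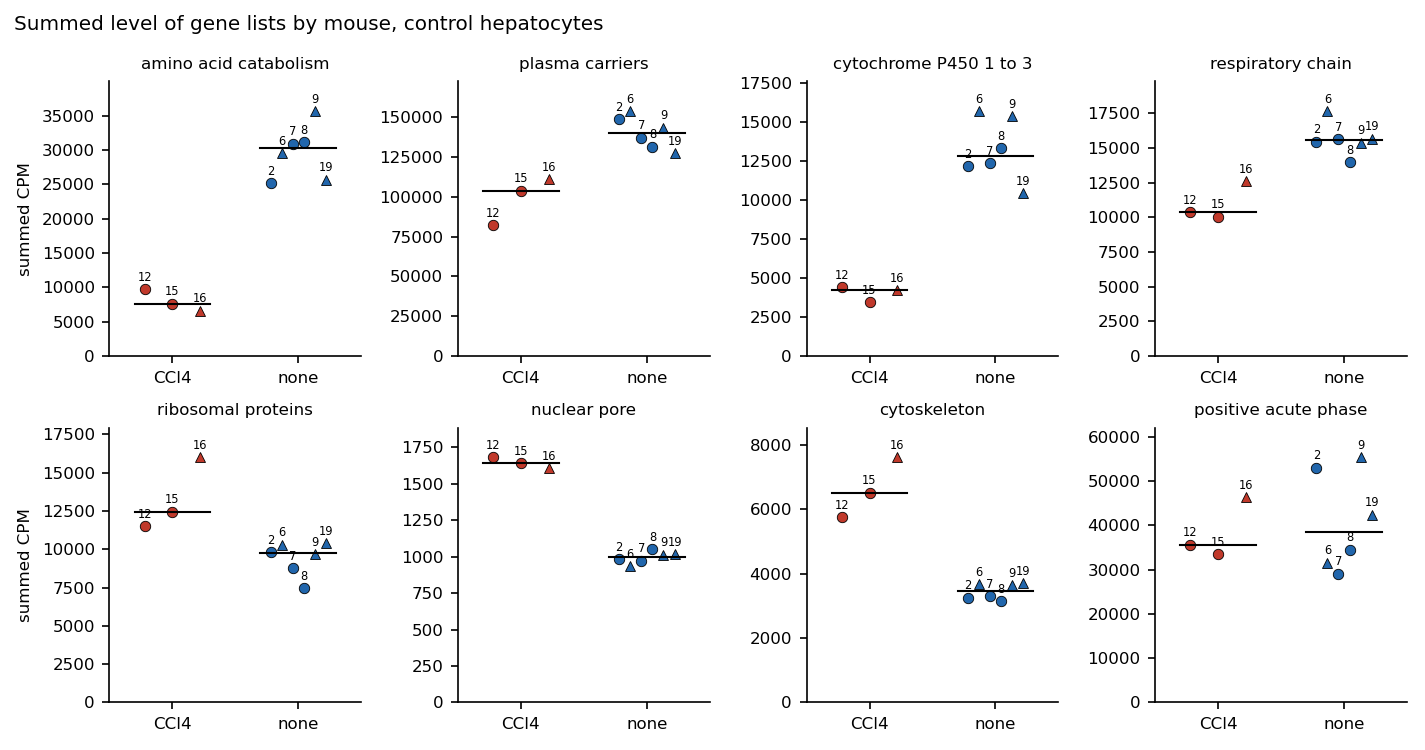
Summed CPM (linear axis from 0) of 8 gene lists in each control hepatocyte library, CCl4 on the left and no CCl4 on the right. Points are mice, labelled by number, circles the first and triangles the second series of sequencing files, and lines are group medians. The groups lie apart in 7 lists and overlap in the positive acute phase list.

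Enzymes that handle foreign compounds fell broadly. In the cytochrome P450 families 1 to 3, 22 of 37 tested genes fell (median -1.32), or 13 of 26 outside the zonation list, and 16 were lower and 2 higher under library totals. The sum was 4405, 3456 and 4212 CPM after CCl4, against 10458 to 15724 CPM (median 12845) without it. Cyp2c38 held 0.953, 2.91 and 2.48 CPM after CCl4, against 39.3 to 126 CPM (median 90.8) without it (log2 fold change -5.38, SE 0.56, adjusted p = 1.84e-06), and Cyp2j5, an epoxygenase of arachidonic acid, 364, 322 and 248 CPM after CCl4, against 799 to 944 CPM (median 827) without it (log2 fold change -1.44, SE 0.22, adjusted p = 4.69e-05). Both lay apart. Among the transferases that add sulfate, glucuronic acid or methyl groups 17 of 24 fell (median -1.36, 11 without mouse 15 and 11 under library totals). Ugt2b1, a glucuronosyltransferase, held 114, 169.9 and 109 CPM after CCl4, against 267 to 667 CPM (median 466) without it (log2 fold change -1.84, SE 0.29, adjusted p = 8.01e-05). Sult1b1, a sulfotransferase of thyroid hormones and phenols, fell by 1.38 (SE 0.25, adjusted p = 0.000291) without overlap. Glutathione transferases fell in 11 of 18 cases (median -1.07). Gsta3, the alpha class enzyme that detoxifies aflatoxin in mice, held 436, 698 and 697 CPM after CCl4, against 1458 to 2572 CPM (median 1673) without it (log2 fold change -1.6023, SE 0.26, adjusted p = 0.000117), and Gstt3 46.1, 60.3 and 35.8 CPM after CCl4, against 106 to 384 CPM (median 201) without it (log2 fold change -2.25, SE 0.42, adjusted p = 0.000689). Neither overlapped. Of 18 carboxylesterases and lipases 7 fell (median -0.79). Ces2a held 22.1, 21 and 33.7 CPM after CCl4, against 83.2 to 131 CPM (median 102) without it (log2 fold change -2.03, SE 0.27, adjusted p = 1.01e-05), far apart in every mouse.

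Antioxidant genes split. Catalase (Cat), which breaks down hydrogen peroxide, held 471, 493 and 591 CPM after CCl4, against 1380.2 to 1978 CPM (median 1709) without it (log2 fold change -1.68, SE 0.27, adjusted p = 8.54e-05), and Gpx1, a glutathione peroxidase, 1109, 1224 and 1479 CPM after CCl4, against 3119 to 4289 CPM (median 3553) without it (log2 fold change -1.51, SE 0.24, adjusted p = 6.52e-05). Sod2, the mitochondrial superoxide dismutase, fell by 1.01 (SE 0.15, adjusted p = 4.11e-05). In these 3 genes the CCl4 mice were the lowest 3 of 9. Srxn1, sulfiredoxin, a target of NRF2 named after its value was seen, rose, with 51.1, 97.1 and 74.4 CPM after CCl4, against 27.6 to 47.7 CPM (median 35.1) without it (log2 fold change 1.00, SE 0.22, adjusted p = 0.00183) and no overlap. Its call was lost in the edgeR fit of the first file series alone (adjusted p = 0.0834). The inducible NRF2 targets Nqo1 and Hmox1, also named after their values were seen, were not called (log2 fold change 0.42, SE 0.37, adjusted p = 0.436 and log2 fold change 0.83, SE 0.80, adjusted p = 0.491). In the whole list 3 of 25 rose (12%) and 7 fell (28%), beside 13.7% of all genes each way. The share of higher genes was thus near that of all genes. The number that rose was 1 without mouse 15 and 0 in the first file series alone. The median was -0.01, but 0.40 with 6 higher and 5 lower under library totals.

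Genes of glucose and fructose handling were lower as a list, 14 of 23 against 2 higher (1 without mouse 16; median -1.01, 7 lower under library totals). Khk, ketohexokinase, which starts fructose breakdown, held 72.1, 76.8 and 68.4 CPM after CCl4, against 166 to 330.2 CPM (median 245) without it (log2 fold change -1.76, SE 0.27, adjusted p = 5.95e-05). Gckr, which encodes a regulatory protein of sugar metabolism, fell by 1.43 (SE 0.24, adjusted p = 0.000146). Slc37a4, the transporter of glucose 6-phosphate, fell by 1.39 (SE 0.29, adjusted p = 0.000983). None of these overlapped. Glycolytic genes of dividing and non-hepatic cells moved the other way in 3 of 12 cases, and no other was called. Ldha, lactate dehydrogenase A, held 444, 381 and 764 CPM after CCl4, against 188 to 322 CPM (median 261) without it (log2 fold change 1.00, SE 0.22, adjusted p = 0.00184). Pkm, the pyruvate kinase of muscle and dividing cells, held 5.53, 17.5 and 9.93 CPM after CCl4, against 0.637 to 4.24 CPM (median 2.58) without it (log2 fold change 2.66, SE 0.57, adjusted p = 0.00118), and 139 to 368 CPM in macrophages. Both were highest in the CCl4 mice, whereas the call of Hk2, hexokinase 2 (1.89, adjusted p = 0.023), was lost without mouse 15, 2 or 8 (adjusted p = 0.0731, 0.0759 and 0.0697).

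Mitochondrial genes were lower by small steps that depended on the scale. Of 72 nuclear-encoded genes of the respiratory chain 27 fell (median -0.49), 13 without mouse 12 and 13 without mouse 15, and 2 were lower and 2 higher under library totals (median -0.08). Sdhb, the iron-sulfur subunit of succinate dehydrogenase, held 192, 209.5 and 158 CPM after CCl4, against 320.3 to 505 CPM (median 380.1) without it (log2 fold change -1.07, SE 0.20, adjusted p = 0.000494), and Ndufa6, of complex I, 174, 151 and 208 CPM after CCl4, against 277 to 385 CPM (median 337) without it (log2 fold change -0.92, SE 0.17, adjusted p = 0.000304). In both every CCl4 mouse was lower. Of the 13 mitochondrially encoded genes 0 were called by edgeR, with 3 lower at an unadjusted p under 0.05 and 1 called each by DESeq2 and limma voom. In the list of citrate cycle and pyruvate dehydrogenase 9 of 19 genes fell (median -0.42, 3 without mouse 15, and 2 lower and 2 higher under library totals). That list also holds cytosolic enzymes, such as the isocitrate dehydrogenase Idh1, which fell by 1.02 (SE 0.18, adjusted p = 0.000205). Of 28 genes of fatty acid oxidation and ketogenesis 6 fell (median -0.46), 3, 2 or 3 without mouse 12, 15 or 2, and 1 was lower and 4 higher under library totals. Acsl1, which activates long-chain fatty acids, held 449, 444 and 431 CPM after CCl4, against 837 to 1144 CPM (median 957) without it (log2 fold change -1.13, SE 0.29, adjusted p = 0.00616), without overlap. In triglyceride synthesis Dgat2, which makes the last step, held 111, 113 and 123 CPM after CCl4, against 222 to 389.7 CPM (median 336) without it (log2 fold change -1.49, SE 0.20, adjusted p = 1.36e-05). Hilpda, a lipid droplet protein induced by low oxygen, held 27.3, 78.8 and 67.7 CPM after CCl4, against 5.73 to 14.9 CPM (median 8.54) without it (log2 fold change 2.67, SE 0.37, adjusted p = 1.98e-05). Both lay apart, in opposite directions.

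Transcription factors of the hepatocyte were mildly lower, in 11 of 35 cases (median -0.45), 5 without mouse 15 and 6 without mouse 16, and 4 were lower and 3 higher under library totals. Klf15, a glucocorticoid-induced factor of amino acid breakdown, held 39.9, 19.7 and 51.4 CPM after CCl4, against 53.5 to 314 CPM (median 149) without it (log2 fold change -2.15, SE 0.53, adjusted p = 0.00608), and Mlxipl, the glucose sensor ChREBP, 74.9, 52.3 and 58.5 CPM after CCl4, against 95.5 to 197 CPM (median 151) without it (log2 fold change -1.28, SE 0.27, adjusted p = 0.00128). The groups did not overlap in either, but the call of Klf15 was lost with mouse 15 moved to the knockout group and in the first file series alone. Hnf4a, the nuclear receptor that maintains hepatocyte identity, named after its value was seen, held 232, 248 and 294 CPM after CCl4, against 275 to 466 CPM (median 389) without it. Its groups overlapped, and its call (log2 fold change -0.56, SE 0.21, adjusted p = 0.0484) was lost without mouse 12, 15, 16, 2, 6, 8, 9 or 19 (log2 fold change -0.67 to -0.47) and under library totals. In the growth hormone and IGF list 7 of 18 fell (median -0.64), 3 without mouse 16, and 4 were lower and 3 higher under library totals. Ghr, the growth hormone receptor, held 130.2, 129 and 102 CPM after CCl4, against 338 to 475 CPM (median 450.2) without it (log2 fold change -1.81, SE 0.30, adjusted p = 0.000143), and Stat5b, the factor it activates, 14.3, 12.5 and 25.9 CPM after CCl4, against 28.3 to 52.3 CPM (median 36.7) without it (log2 fold change -1.15, SE 0.27, adjusted p = 0.00312). In both all CCl4 mice were below all others, but the call of Stat5b was lost with mouse 15 moved to the knockout group. Of 18 clock genes 5 fell (3, 1 or 2 without mouse 12, 15 or 16, and 1 lower and 2 higher under library totals), and the hour of collection is not given in the sources used here. Bhlhe41, a repressor of the clock, held 1.53, 2.26 and 1.77 CPM after CCl4, against 10.7 to 50.5 CPM (median 16.1) without it (log2 fold change -3.36, SE 0.58, adjusted p = 0.000249), clearly apart.

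Transporters at the cell surface followed the enzymes. Of 23 basolateral and canalicular transporters 11 fell (median -0.75, 9 lower and 1 higher under library totals), and the sum was 2951, 2589 and 2029 CPM after CCl4, against 4634 to 7939 CPM (median 5795) without it. Abcb11, the bile salt export pump, held 197, 139 and 123 CPM after CCl4, against 413 to 580.3 CPM (median 449.6) without it (log2 fold change -1.62, SE 0.26, adjusted p = 0.000107), and Abcc6, a pump needed to prevent ectopic calcification, 3.24, 8.74 and 5.67 CPM after CCl4, against 19.1 to 45.1 CPM (median 30.4) without it (log2 fold change -2.42, SE 0.37, adjusted p = 5.18e-05). Slc38a4 and Slc38a3, amino acid transporters of hepatocytes, held 241, 290.4 and 294 CPM and 171, 138 and 139.7 CPM after CCl4, against 734 to 1207 CPM (median 1078) and 378 to 642 CPM (median 509.6) without it. They fell by 1.92 (SE 0.24, adjusted p = 5.10e-06) and 1.75 (SE 0.26, adjusted p = 3.95e-05). None of these 4 genes overlapped. In the whole list of amino acid and metal transporters 5 of 21 fell and 2 rose, but 4 were lower and 5 higher under library totals. Of 24 genes of iron and haem 6 fell and 1 rose, 3 fell without mouse 12, 16, 2 or 8, 0 rose without mouse 12, 6, 7 or 9 and 3 without mouse 2, and the median of -0.17 turned to 0.26 under library totals with 2 lower and 4 higher. Tmprss6, the protease that restrains hepcidin, held 87.3, 80.2 and 74.4 CPM after CCl4, against 125 to 171 CPM (median 151) without it (log2 fold change -0.90, SE 0.19, adjusted p = 0.00136), with no overlap.

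Lists of RNA processing held mostly higher genes among those called. In the nuclear pore and transport list, 17 of 34 genes rose (median 0.93), or 14 of 30 outside the division list (median 0.61), and their sum was 1681, 1643 and 1607 CPM after CCl4, against 933 to 1051 CPM (median 999) without it. Ran, the GTPase that drives nuclear transport, held 192, 181 and 215 CPM after CCl4, against 70.4 to 86.1 CPM (median 76.9) without it (log2 fold change 1.33, SE 0.19, adjusted p = 2.09e-05), and Rangap1, its activating protein, 146, 161 and 118 CPM after CCl4, against 25.3 to 50.5 CPM (median 44.4) without it (log2 fold change 1.73, SE 0.22, adjusted p = 6.70e-06). Nup93, of the inner ring of the pore, held 25.9, 36.1 and 22.7 CPM after CCl4, against 3.18 to 10.05 CPM (median 6.54) without it (log2 fold change 2.00, SE 0.35, adjusted p = 0.000214). The groups lay apart in all 3. Of 46 splicing factors 14 rose (median 0.48) and no other was called. Hnrnph1, which binds G-rich RNA, held 130.2, 95.5 and 85.1 CPM after CCl4, against 26.5 to 48 CPM (median 37) without it (log2 fold change 1.46, SE 0.21, adjusted p = 3.15e-05), and Snrpd1, a core protein of spliceosomal particles, 49.6, 59.5 and 58.5 CPM after CCl4, against 19.1 to 25.3 CPM (median 22.9) without it (log2 fold change 1.32, SE 0.22, adjusted p = 0.000119). Each was highest in the 3 CCl4 mice.

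Cytosolic ribosomal protein genes rose in 22 of 81 cases (median 0.56), 11 without mouse 16, and in 61 under library totals. Their sum was 11499.6, 12454 and 15995 CPM after CCl4, against 7471 to 10384 CPM (median 9759) without it, with mouse 16 highest and no overlap. Rpsa held 80.9, 99.8 and 91.1 CPM after CCl4, against 34.6 to 49.9 CPM (median 38.6) without it (log2 fold change 1.15, SE 0.22, adjusted p = 0.000573), and Rps19 105, 126 and 268 CPM after CCl4, against 48.8 to 90.2 CPM (median 62.1) without it (log2 fold change 1.34, SE 0.28, adjusted p = 0.00107), where mouse 16 again stood highest. Many ribosomal protein genes share reads with processed pseudogenes, so their values are uncertain. Of 39 genes of ribosome assembly 11 rose (median 0.37), 7 without mouse 12 and 6 without mouse 15. Nop58, a core protein of box C/D particles that methylate ribosomal RNA, held 146, 135 and 143 CPM after CCl4, against 43.5 to 64.1 CPM (median 47.7) without it (log2 fold change 1.47, SE 0.20, adjusted p = 1.07e-05), without overlap. In the list of polyamine, one-carbon and nucleotide supply 8 of 28 rose (5 without mouse 12 or 16) and 3 fell (1 under library totals). Nme1, a nucleoside diphosphate kinase, held 148, 149 and 134 CPM after CCl4, against 48.8 to 81.6 CPM (median 69.6) without it (log2 fold change 1.07, SE 0.18, adjusted p = 0.000142), and Srm, spermidine synthase, rose by 1.20 (SE 0.27, adjusted p = 0.00193). Cad, which starts pyrimidine synthesis, rose by 1.23 (SE 0.24, adjusted p = 0.00066), whereas Shmt1, a cytosolic enzyme of the folate cycle, fell by 1.09 (SE 0.26, adjusted p = 0.00319). Translation factors rose in 4 of 37 cases (2 without mouse 16) and fell in 2 (1 without mouse 15, 2, 6, 8 or 9), a share of higher calls under that of all genes. In the proteasome list 0 of 40 genes were called by edgeR, DESeq2 or limma voom, with 1, 1 and 2 lower at an unadjusted p under 0.05, and 6 were higher under library totals.

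The cytoskeleton list rose in 19 of 38 cases (median 1.15) and fell in 1 (0 without mouse 12), with a sum of 5759.9, 6522 and 7618 CPM after CCl4, against 3153 to 3702 CPM (median 3472) without it. In macrophages of control mice after CCl4 the sum was 28173 to 47457 CPM. Tubb6 held 93.1, 149.7 and 149.6 CPM after CCl4, against 5.3 to 14.1 CPM (median 11.5) without it (log2 fold change 3.61, SE 0.27, adjusted p = 2.05e-08), and Tuba1b (chr15:98931425-98934565), an alpha-tubulin, 208, 223 and 172 CPM after CCl4, against 7.22 to 36.1 CPM (median 15.4) without it (log2 fold change 3.54, SE 0.40, adjusted p = 4.74e-06). Tpm1, a tropomyosin that winds along actin filaments, held 113, 129.9 and 149 CPM after CCl4, against 31.7 to 49.6 CPM (median 45) without it (log2 fold change 1.6001, SE 0.19, adjusted p = 3.40e-06). The groups were far apart in all 3. Of 21 annexins, S100 proteins and galectins 10 rose and 5 fell, where the lower ones were 2 or 3 without mouse 12, 15, 16, 2 or 9 and 0 under library totals. Anxa2, an annexin that links membranes to actin, held 67.1, 129.9 and 96.1 CPM after CCl4, against 3.61 to 22.3 CPM (median 7.18) without it (log2 fold change 3.30, SE 0.42, adjusted p = 1.61e-05), and 184 to 331 CPM in macrophages. Lgals3, galectin 3, named after its value was seen, held 27.3, 43.8 and 81.9 CPM after CCl4, against 0 to 23.3 CPM (median 0.964) without it (log2 fold change 3.89, SE 0.93, adjusted p = 0.00556, and 4.97 without mouse 19), and 805 to 2177 CPM in macrophages. In neither did the groups overlap.

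In the junction list 4 of 28 genes (14.3%) were higher and 7 (25%) lower, beside 13.7% of all genes each way. The share of higher genes was thus near that of all genes. Without mouse 15, 16, 2 or 8 the number higher was 1, 1, 2 or 1, and under library totals 7 were higher and 4 lower. Dsg1c, a desmosomal cadherin of hepatocytes, held 0.763, 0.647 and 0.354 CPM after CCl4, against 14.4 to 43.3 CPM (median 24.4) without it (log2 fold change -5.39, SE 0.56, adjusted p = 2.17e-07). Gjb2, connexin 26 of gap junctions, held 128, 107 and 124 CPM after CCl4, against 149.6 to 385 CPM (median 245) without it (log2 fold change -1.10, SE 0.23, adjusted p = 0.000983), and Cldn12, a claudin, fell by 1.04 (SE 0.20, adjusted p = 0.000512). All 3 were lower in every CCl4 mouse. Cdh1, E-cadherin, held 233, 292 and 193 CPM after CCl4, against 81 to 199 CPM (median 123) without it (log2 fold change 0.92, SE 0.20, adjusted p = 0.00199), with mouse 16 just inside the other group. Of 10 tested fetal liver and progenitor genes 5 rose and 1 fell (0 without mouse 12, 15 or 16; median 1.62), and beside Afp and Ly6d these included Prom1, prominin 1, with 11.4, 25.6 and 19.1 CPM after CCl4, against 0 to 5.3 CPM (median 1.07) without it (log2 fold change 3.62, SE 0.54, adjusted p = 3.95e-05). Sox9, a factor of bile duct and progenitor cells, held 55.3, 209.5 and 118 CPM after CCl4, against 18 to 53 CPM (median 22.3) without it (log2 fold change 2.07, SE 0.40, adjusted p = 0.000902). Prom1 and Sox9 did not overlap between the groups. Summed bile duct markers stood at 102, 264 and 216 CPM after CCl4, against 51.4 to 128 CPM (median 65.5) without it. That list includes Sox9 and Prom1, and Sox9 alone gave 55.3, 209.5 and 118 CPM of the sums after CCl4. The part of bile duct cells in these values was not tested.

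Among 25 growth factors, their receptors and activins 7 rose (4 without mouse 15) and 4 fell (2 without mouse 15 or 16). The activin subunit gene Inhbb had 2 counts in the 6 mice without CCl4 and 3.05, 8.57 and 3.19 CPM after it, a pooled ratio of 49.8 (13.3 to 418). Both counts were in mouse 7. The fitted log2 fold change was 5.05, 6.70 without mouse 7 and 4.29 without mouse 15. Osmr, a receptor of oncostatin M, held 4.39, 7.12 and 9.22 CPM after CCl4, against 0 to 2.35 CPM (median 0.386) without it (log2 fold change 3.06, SE 0.62, adjusted p = 0.000575, and 3.79 without mouse 7). Erbb3, a receptor of neuregulins, held 18.9, 18 and 17.4 CPM after CCl4, against 36.1 to 67.7 CPM (median 53.2) without it (log2 fold change -1.53, SE 0.28, adjusted p = 0.000357). Ligand and receptor thus lay in opposite directions, Nrg1 higher and Erbb3 lower, each without overlap.

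In the lists of stress pathways 12.5% to 26.1% of genes were called higher, beside 13.7% of all genes, and more under library totals. Of 28 p53 targets and apoptosis genes 7 rose and 1 fell (2 without mouse 12), with 14 higher under totals. Aen, a nuclease induced by p53, held 20.02, 17 and 13.8 CPM after CCl4, against 2.71 to 5.95 CPM (median 4.47) without it (log2 fold change 1.79, SE 0.27, adjusted p = 3.93e-05), and Tnfrsf10b, the TRAIL receptor, 7.25, 7.6 and 8.51 CPM after CCl4, against 0 to 1.39 CPM (median 0.615) without it (log2 fold change 2.83, SE 0.49, adjusted p = 0.000115). Plk2, a polo-like kinase induced by p53, rose by 2.13 (SE 0.31, adjusted p = 3.54e-05), and the one that fell was Casp6, an executioner caspase, by 1.14 (SE 0.20, adjusted p = 0.000207). All 4 separated the groups. Immediate early genes rose in 6 of 23 cases (3 without mouse 15, 11 under totals) and fell in 1 (2 without mouse 16). Myc held 8.01, 12 and 10.6 CPM after CCl4, against 0.902 to 3.12 CPM (median 1.78) without it (log2 fold change 2.28, SE 0.40, adjusted p = 0.000208), and Ier5, a target of heat shock factor, 40.04, 92.1 and 44 CPM after CCl4, against 3.61 to 17.2 CPM (median 9.89) without it (log2 fold change 2.43, SE 0.34, adjusted p = 1.86e-05). Fos and Egr1, named after their values were seen, were not called and overlapped, at 739.9, 357 and 604 CPM and 722, 739 and 697 CPM after CCl4, against 351 to 1148 CPM (median 825) and 376 to 926 CPM (median 773) without it. Chaperones of the endoplasmic reticulum rose in 3 of 24 cases, with 0 to 6 when 1 mouse was left out (0 without mouse 12, 15 or 7, 1 without mouse 9 and 6 without mouse 19), and 12 under library totals. Cytosolic chaperones rose in 5 of 27 cases (2, 3 or 3 without mouse 12, 15 or 16, and 12 under totals), among them Cct7, a subunit of the chaperonin that folds actin and tubulin, by 0.58 (SE 0.15, adjusted p = 0.00671). Of 18 ATF4 targets 3 rose and 1 fell (2 without mouse 19; 10 higher under totals), among them Mthfd2, a mitochondrial folate enzyme, with 9.53, 13.3 and 11 CPM after CCl4, against 0.52 to 2.71 CPM (median 1.78) without it (log2 fold change 2.85, SE 0.52, adjusted p = 0.000269), without overlap.

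With TMM factors, matrix and chemokine genes had the highest shares of increases among the 47 lists. Markers of other cells were mostly higher too, as given above, and whether these genes followed them was not tested. The stellate marker list itself holds Dcn and the collagen genes Col1a1, Col1a2 and Col3a1, so it is not separate from matrix genes. Of 27 collagens and matrix genes 16 rose and 1 fell (median 2.16), while the summed level of all 37 overlapped, at 1997, 2619 and 3235 CPM after CCl4, against 1375 to 2090.0 CPM (median 1749.8) without it, with mouse 12 inside the range of the other group. Nid1, nidogen of basement membranes, held 53.2, 37.9 and 67.4 CPM after CCl4, against 0.902 to 8.49 CPM (median 3.03) without it (log2 fold change 3.88, SE 0.44, adjusted p = 4.03e-06), and Lamc1, a laminin chain, 13.9, 17.6 and 19.1 CPM after CCl4, against 1.8 to 8.22 CPM (median 4.33) without it (log2 fold change 1.93, SE 0.33, adjusted p = 0.000201). Fbn1, the fibrillin of microfibrils, stood at 9.73, 15 and 8.86 CPM after CCl4, against 0 to 2.87 CPM (median 0.587) without it (log2 fold change 3.24, SE 0.58, adjusted p = 0.000186, and 4.23 without mouse 7). These 3 genes did not overlap. Of 11 tested stellate cell and fibroblast markers 5 were called higher (3 without mouse 16), whereas Dcn, decorin, the most abundant of them, was not (151, 479.7 and 464 CPM after CCl4, against 9.56 to 281 CPM (median 79.5) without it, adjusted p = 0.196). Of 11 endothelial markers 1 was called (0 without mouse 15, 2 or 8, 2 without mouse 6 and 4 without mouse 7). With the summed endothelial markers as a term, 2006 genes were called instead of 2652. Of the collagens and matrix genes 17 were then called higher, beside 16 without the term. The part of stellate and endothelial cells in the matrix genes was not tested further.

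Of 19 chemokines and cytokines 10 rose and 2 fell (median 2.42). Cxcl10, a chemokine induced by interferon, held 79.5, 74.3 and 35.4 CPM after CCl4, against 5.3 to 23.5 CPM (median 9.53) without it (log2 fold change 2.42, SE 0.49, adjusted p = 0.00144), and 26.2 to 51.1 CPM in macrophages of control mice after CCl4. Ccl3, a chemokine of myeloid cells, held 4.58, 4.04 and 11 CPM after CCl4, against 0 to 4.69 CPM (median 0.758) without it (log2 fold change 3.42, SE 0.76, adjusted p = 0.00141, and 4.23 without mouse 6), and 121 to 319 CPM in macrophages. Ccl3 overlapped between the groups and Cxcl10 did not. Il18, an interleukin of the IL-1 family, held 7.82, 11.8 and 12.1 CPM after CCl4, against 26.5 to 47.8 CPM (median 34.1) without it (log2 fold change -1.73, SE 0.27, adjusted p = 7.05e-05), lower in every CCl4 mouse. Of the 11 Kupffer cell markers tested 4 were called higher, and none without mouse 12, 15, 2, 8 or 9, 1 without mouse 16, 2 without mouse 7 and 9 without mouse 6. Cd5l, the highest of them, stood at 60.4, 82.2 and 71.3 CPM after CCl4, against 1.49 to 29.7 CPM (median 15.7) without it (log2 fold change 2.32, SE 0.80, adjusted p = 0.0439), and its call was lost without mouse 12, 15, 16, 2, 8 or 9 (log2 fold change 2.02 to 2.42). Among the 1057 genes higher after CCl4 outside the lists set aside, 143 (13.5%) had a mean level in the 4 macrophage libraries of control mice after CCl4 of at least 10 times that in hepatocytes after CCl4. The same held for 5 of the 1328 lower genes (0.377%) and for 305 of all 9679 (3.15%). The part of macrophages in these 143 genes was not tested.

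The response was set against that of knockout siblings, whose hepatocytes came from 4 mice after CCl4 and 5 without it. The Opn promoter drives the Cre in bile duct cells rather than hepatocytes, and all knockout libraries belong to the second series of sequencing files. In 21 genes (0.217% of 9679) the interaction was called, and all 21 were also called in controls. The larger log2 fold change was the controls' in 19, and 13 of the 21 had at least 10 times as high a level in macrophages as in hepatocytes of CCl4-treated controls. The count rests on single libraries. It was 0 without mouse 16, 2 or 8 (edgeR, with 1041, 859 and 876 genes at an unadjusted p under 0.05), 2 without mouse 15, 3 without mouse 9, 38 without mouse 12, 41 without mouse 7 and 63 without mouse 19.

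Myc rose in controls, whereas in knockout mice its log2 fold change was -0.55 (adjusted p = 0.389), a difference of 2.83 (SE 0.56, adjusted p = 0.0393). Knockout mice held 7.51 to 12.4 CPM of Myc (median 8.99) after CCl4, against 3.43 to 28.1 CPM (median 12.7) without it, where controls without CCl4 had at most 3.12 CPM. Nid1 had 0.70 in knockout mice (adjusted p = 0.242, difference 3.18, SE 0.59, adjusted p = 0.0393), and Nrg1 1.20 (adjusted p = 0.0364, difference 3.07, SE 0.65, adjusted p = 0.0439). Knockout mice held 58.9 to 139.9 CPM of Nid1 (median 74.9) after CCl4, against 26.7 to 94.5 CPM (median 50.3) without it, and 15.4 to 19.4 CPM of Nrg1 (median 17.3) after CCl4, against 5.09 to 13.3 CPM (median 5.78) without it. Without CCl4 every knockout mouse held more of these 3 genes than any control, and this difference was not tested. Krt23, a keratin of bile duct cells named after its value was seen, went the other way, with 0.763, 5.34 and 3.19 CPM in controls after CCl4, against 4.69 to 19.7 CPM (median 11.4) without it (log2 fold change -2.08, SE 0.49, adjusted p = 0.00303, overlapping and -2.94 without mouse 15). In knockout mice its log2 fold change was 1.90 (adjusted p = 0.00647), a difference of -3.98 (SE 0.66, adjusted p = 0.0358). Of the genes described above, Gnmt had -3.28 in controls and -3.26 in knockout mice (interaction SE 0.54, adjusted p = 0.997), Afp 4.79 and 4.52 (SE 0.60, adjusted p = 0.937), and Mat1a -2.12 and -2.28 (SE 0.61, adjusted p = 0.966). Median log2 fold changes of lists lay further apart for chemokines and cytokines (2.42 in controls and -0.78 in knockout mice), collagens and matrix (2.16 and 0.04), major urinary proteins (-3.22 and -0.28) and fatty acid oxidation (-0.46 and 0.16). In the positive acute phase list 0 genes rose and 13 fell in knockout mice, beside 4 and 4 in controls. These differences between lists were not tested. An interaction that was not called does not show equal responses.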

How the data were processed

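Per the labels' protocols, hepatocyte RNA was read on a HiSeq4000 in single 50 bp reads. The submitters' processing notes name Trimmomatic 0.39, HISAT2 2.1.0 and the build GRCm38 (mm10). What the authors deposited are raw counts for 24951 gene symbols. Counter, annotation and strand setting: not given in the sources used here, so reads of overlapping and antisense genes cannot be told apart. Mice were grouped by genotype and treatment labels, with 1 hepatocyte library each. No library was a copy of another of its group: chi-square over degrees of freedom was 8.35 to 42.5 for pairs within a group.

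The 18 hepatocyte libraries of 4 groups were fitted together in R 4.3.3 with edgeR 4.0.16 (filterByExpr, TMM, robust quasi-likelihood F tests, 14 residual degrees of freedom). Every adjusted p in the text is from this fit with Benjamini-Hochberg adjustment over all 9679 genes at 0.05, unless another tool or fit is named. Fits without 1 mouse or of a file series alone were filtered anew by edgeR and adjusted over their own genes. Those under library totals kept the 9679 genes. Each SE is approximate, from dividing the log2 fold change by the root of F. The interaction is the CCl4 response of controls minus that of knockout mice. CPM values, of tested genes, use TMM factors. Ratios against 2 counts carry an exact 95% interval (confidence level 0.95), which, like the floor of 3 counts, covers counting error only.

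The 47 gene lists and 10 marker lists, the naming rule and the comparison were chosen with earlier results of these data known. Named are the 12 called genes of largest fold each way with at least 10 CPM in the higher group outside the lists set aside (without predicted genes, receptor segments or clone names), the 6 of largest difference in CPM each way, up to 4 called genes of lowest p per list and 1 marker per marker list. Not every gene given by this rule is described, and some are not reported here. Of 22 alternatives (DESeq2 1.42.0 and limma 3.58.1 among them) 3 were chosen after seeing the data. The script was tested on simulated data. RefSeq promoters (GRCm38.p6) were matched by symbol.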

Additional observations from a re-analysis of the deposited data

Results flagged for a closer look

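In the 6 mice without CCl4, 239 genes and marker sums were searched for a mouse far from the other 5, by the gap to the nearest mouse over the range of the log2 values. Chance flags about 1 in 20 groups, and 20 were found here. Mouse 19 was lowest in Afp (0 CPM), Rgs16 (3.18 CPM), Csrp3 (7.43 CPM), Gckr (82.8 CPM), Cyp2e1 (752 CPM) and Nr1d1 (9.55 CPM), and highest in Saa3 (127 CPM), Timp1 (9.55 CPM), S100a8 (18.04 CPM), Hbb-bs (20.2 CPM), the neutrophil markers (55.2 CPM) and the erythroid markers (58.4 CPM). Mouse 9 was highest in Tnc (0.902 CPM) and Cd4 (4.51 CPM) and lowest in Ugt2a3 (198 CPM) and Rangap1 (25.3 CPM). Mouse 7 was lowest in Manf (52.7 CPM) and highest in Inhbb (0.41 CPM). Mouse 8 was highest in Srsf3 (89.6 CPM) and lowest in Ces1e (35.3 CPM).

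The CCl4 response of controls minus that of knockout mice differed by the interaction test in 11 of the genes named. On the log2 scale it was 5.96 for Mmp12, 3.07 for Nrg1, 2.83 for Myc, 5.43 for Slc7a8, 4.72 for Ccl3, 3.18 for Nid1, 2.55 for Incenp, 5.56 for Clca3a1 and 6.78 for Fabp7. It was -3.98 for Krt23 and -1.61 for Abca8a. Incenp, Clca3a1, Fabp7, Krt23 and Abca8a were named after their values were seen. Slc7a8, an amino acid transporter, held 4.39, 5.99 and 14.2 CPM in controls after CCl4, against 0 to 3.52 CPM (median 0.656) without it, and 73.2 to 273 CPM in macrophages. Incenp, of the chromosomal passenger complex, held 39.3, 42.5 and 40.1 CPM in controls after CCl4, against 0 to 1.17 CPM (median 0.877) without it, and rose in knockout mice as well, by 3.09 (edgeR adjusted p = 1.66e-06).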

How the results depend on the processing

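No paired analysis was possible because no mouse is in both hepatocyte groups compared. Of 22 alternatives, none gave a called gene the opposite direction of the fit of all libraries among the genes called in both. Counts moved by over 1.5 times as follows, beside 2652 genes called, 1324 higher, 1328 lower, 2309 outside the lists set aside and 21 interactions. The second file series alone, with 1 mouse after CCl4 whose spread is assumed to be that of the other groups, gave 502 called, 324 higher, 178 lower and 319 outside the lists. Libraries thinned to the smallest total gave 853 lower and 1483 outside the lists. Library totals without TMM factors, tried because the factors of the groups do not overlap, gave 3044 higher and 590 lower (83.8% higher, against 49.9%) and raised the median log2 fold change of all genes by 0.43. Leaving out 1 library gave 2020 to 2755 called genes (1063 to 1484 higher and 957 to 1271 lower). The first file series alone, with 2 mice after CCl4 and 3 without it, gave 2506 called genes. Of 226 tested genes taken up by name 27 lost their call there, Thrsp, Klf15, Adamts1 and Cct7 among them. The interaction count was 34 with RLE factors, 113 without a filter, 46 by DESeq2, 6 by limma voom, 54 with the file series as a term, 1 in thinned libraries, 37 under library totals and 0 to 63 with 1 library left out: 38 without mouse 12, 2 without 15, 41 without 7, 3 without 9, 63 without 19 and 0 without 16, 2 or 8 (1041, 859 and 876 at an unadjusted p under 0.05). By edgeR it was 0 in the second series alone, with mouse 15 moved, in the earlier form of the fit and with the endothelial term (648, 939, 878 and 683 at an unadjusted p under 0.05). Earlier fit and endothelial term were also chosen after seeing the data. The log2 fold change of the acinar marker Ctrb1, -0.11 and not called, was 3.77 by limma voom and -1.53 to 3.27 with 1 library left out, where mouse 6 held 682 CPM; it was 3.27 without that mouse. The causes of the other moves were not tested. With 3 against 6 mice, and 3 counts standing for up to 3.03 CPM before TMM factors, small changes and low genes are out of reach.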

Other observations

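Of 35 genes of lysosome and autophagy 9 fell and 2 rose (1 without mouse 16), whereas under library totals 4 were lower and 6 higher. Gabarapl1, a protein of autophagosome formation, held 78.9, 156 and 91.1 CPM after CCl4, against 232 to 392.1 CPM (median 295) without it (log2 fold change -1.48, SE 0.33, adjusted p = 0.00215), and Lamp2, of the lysosome membrane, fell by 0.84 (SE 0.18, adjusted p = 0.00138). The groups overlapped in neither. Of 30 interferon-stimulated and MHC class I genes 2 rose and 2 fell, 6.67% each way, under the 13.7% of all genes. Under library totals 5 were higher and 0 lower, and the median turned from -0.10 to 0.32. Without single mice 1 rose (mouse 15, 2, 8 or 9), and 0 (mouse 12) or 1 (mouse 15 or 8) fell. Ifi44 held 16.6, 16.3 and 8.86 CPM after CCl4, against 3.61 to 10.6 CPM (median 5.5) without it (log2 fold change 1.29, SE 0.34, adjusted p = 0.00811), with overlap, and 230.5 to 584 CPM in macrophages. Of 19 genes of lipid droplets and triglyceride synthesis 2 rose (10.5%) and 3 fell (15.8%), near the 13.7% of all genes each way. Under library totals 3 were higher and 1 lower, with the median turning from -0.21 to 0.21. Without single mice the count of those that rose fell to 1 (mouse 16, 2 or 8) and of those that fell to 1 (mouse 12, 15, 8 or 9). Of 11 matrix proteases and inhibitors 4 rose. Adamts1, a protease of proteoglycans, held 30.1, 73.1 and 70.9 CPM after CCl4, against 1.8 to 25.8 CPM (median 11.1) without it (log2 fold change 2.25, SE 0.55, adjusted p = 0.0056), without overlap. Of the marker lists, 1 of 5 tested monocyte and recruited macrophage markers were called higher (2 without mouse 12 or 15 and 5 without mouse 19), as were 2 of 7 bile duct markers. Of 12 hepatocyte markers 3 were called lower and 0 higher. Neutrophil, lymphocyte and erythroid markers had 0 genes above the filter on low counts.

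Vldlr, a receptor of lipoproteins, held 3.43, 1.62 and 1.77 CPM after CCl4, against 4.24 to 30.5 CPM (median 14.9) without it (log2 fold change -2.74, SE 0.68, adjusted p = 0.00582). Gadd45g, a growth arrest gene, held 21, 22.2 and 17.7 CPM after CCl4, against 29.7 to 158 CPM (median 75.4) without it (log2 fold change -2.01, SE 0.41, adjusted p = 0.0012), lower in every CCl4 mouse although Klf6, of the same list of immediate early genes, held 382, 534 and 323 CPM after CCl4, against 43.5 to 249.6 CPM (median 96.2) without it (log2 fold change 1.77, SE 0.35, adjusted p = 0.000864). Cxcl14, a chemokine of epithelia, held 2.1, 7.77 and 15.6 CPM after CCl4, against 0 to 1.06 CPM (median 0.859) without it (log2 fold change 3.24, SE 0.63, adjusted p = 0.000418, and 2.56 without mouse 16). In none of these 4 genes did the groups overlap.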
